A study of Mus musculus with 12 samples.

Results

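A set of 7 genes of the bone morphogenetic protein (BMP) pathway was followed across mouse mesenchymal stem cells grown as 3D spheroids or as a 2D layer. They were chosen by gene ID, as 7 of the 56748 gene IDs in the deposited tables: Bmp2 (ENSMUSG00000027358), Bmp4 (ENSMUSG00000021835), Grem1 (ENSMUSG00000074934), Id1 (ENSMUSG00000042745), Id2 (ENSMUSG00000020644), Id3 (ENSMUSG00000007872) and Smad6 (ENSMUSG00000036867). RNA was sequenced from stem cells isolated from mouse fat, and the 4 groups were spheroids at 24 h, spheroids at 0 h, 2D cells at 24 h and 2D cells at 0 h, with 3 libraries each and 12 in all. All groups were kept in DMEM with serum and antibiotics, and the labels name no genetic alteration and no added agent. The labels give neither the mouse strain or age, nor the age of the spheroids at 0 h, nor whether replicates came from separate cultures. The p-values therefore measure only the spread between these samples, and that spread may be technical. The labelled cell type was not checked against marker genes, because the tables used here do not pair gene IDs with names. The names of the 7 genes come with the definition of the set.

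BMPs are secreted ligands that bind a pair of receptor kinases at the cell surface. The receptors phosphorylate the signalling Smad proteins (SMAD1, SMAD5 and their relative SMAD9), which enter the nucleus with SMAD4 and switch on target genes. The ID genes are classic targets: ID proteins have a helix-loop-helix but no DNA-binding region, and they hold back the E proteins and the lineage factors that pair with them. Smad6 is also induced by BMP signals and encodes an inhibitor of the same receptors, while gremlin 1, the product of Grem1, binds BMP2 and BMP4 outside the cell and keeps them from the receptors. In mesenchymal stem cells the pathway is best known for driving bone and cartilage formation and for acting in fat cell commitment.

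Library totals lay between 10182590 and 17109609 expected counts, which are estimated reads per gene. Of the 7 genes, 5 passed the filter on low counts and were tested, and Bmp2 and Bmp4 did not. The expected counts of all 7 genes were whole numbers in 12 of 12 libraries. The share of whole numbers among all genes was not counted, so this does not show whether reads had to be shared out between genes. Levels are given in TPM (transcript abundance scaled to a common total), which account for gene length and so can be compared between genes. Log2 fold changes come from the counts (edgeR quasi-likelihood test), and calls were made below 0.05 after Benjamini-Hochberg adjustment over all 14338 genes tested. In such bulk samples, fewer cells that express a gene and less of its RNA per cell cannot be told apart.

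The ligands were close to the limit of detection. Bmp2 had 9, 16 and 3 counts in the spheroid libraries at 24 h, against 0 counts in every spheroid library at 0 h, 0 counts in every 2D library at 24 h, and 0, 0 and 3 counts in 2D at 0 h. All libraries of spheroids at 24 h thus held some Bmp2 reads, while 1 of the other 9 did. At its highest the level was 0.590 TPM, in spheroids at 24 h.

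From counts summed over each group, Bmp2 in spheroids at 24 h was 7.55-fold above a floor of 3 counts in spheroids at 0 h. It was 7.71-fold above the same floor in 2D at 24 h. The floor, taken over the group, stands in place of 0. Without 3D 24 h replicate 2, which held 16 of the 28 counts, these values were 4.49-fold and 4.58-fold. For spheroids at 0 h the floor stood at 0.0842 CPM (counts divided by the scaled library size). The 95% interval of the 0 counts in that group ran higher, up to 0.104 CPM. For 2D cells at 24 h, the floor was 0.0826 CPM and the interval of the 0 counts ran up to 0.102 CPM. The error of the 28 counts is left out of the folds, and their 95% interval was 0.423 to 0.92 CPM. Floors and limits of this kind cover counting error only. Bmp4, the closest relative of Bmp2, had 3 counts in 2D 0 h replicate 2 and 0 counts in the other 11 libraries. A difference in Bmp4 between groups was not detectable at this depth.

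**Figure D1:**
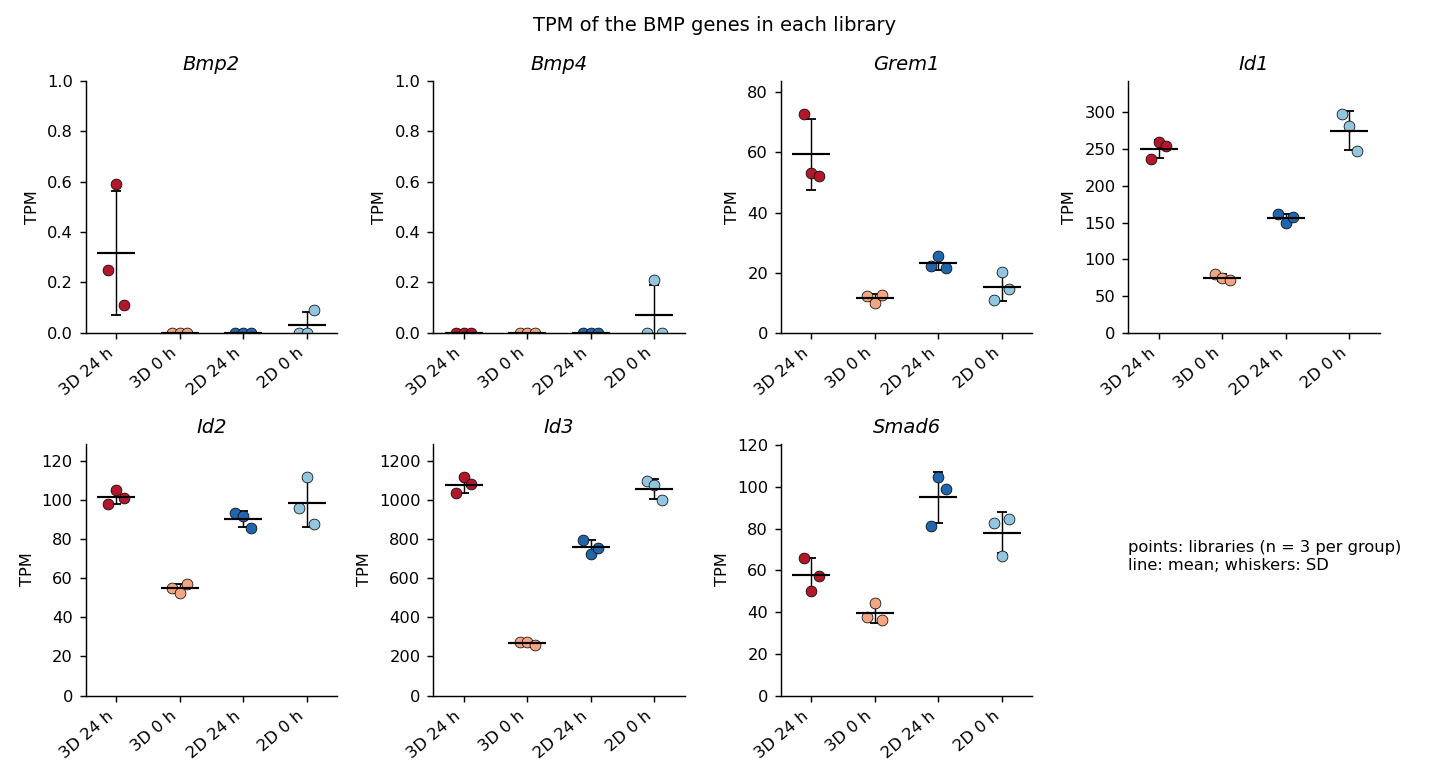
TPM of the 7 BMP genes (vertical axes, from 0) in each library, by group (horizontal axes), with the group mean as a line and the SD as whiskers (n = 3). Grem1 stands highest in spheroids at 24 h (52.0 to 72.8 TPM), Id1, Id2 and Id3 stand lowest in spheroids at 0 h, Smad6 is lower in spheroids than in 2D at either time, and Bmp2 and Bmp4 stay under 1 TPM.

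Grem1, the secreted antagonist, had the largest log2 fold change over 24 h in spheroids among the 5 tested genes. Its level was 72.8, 53.1 and 52.0 TPM in spheroids at 24 h and 12.1, 10.0 and 12.6 TPM in spheroids at 0 h. In 2D it was 22.3, 25.7 and 21.6 TPM at 24 h and 10.8, 20.3 and 14.6 TPM at 0 h. All spheroid libraries at 24 h lay above every other library. The SD was 11.7 TPM in spheroids at 24 h, 1.37 TPM in spheroids at 0 h, 2.16 TPM in 2D at 24 h and 4.78 TPM in 2D at 0 h (n = 3).

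Between 24 h and 0 h in spheroids, Grem1 rose by a log2 fold change of 2.27 ± 0.18 (SE), or 4.82-fold (edgeR adjusted p = 2.5e-08, higher in 3 of 3 libraries). In 2D the log2 fold change over the same time was 0.39 ± 0.18 with overlapping libraries (edgeR adjusted p = 0.093), a value that was 0.66 without 2D 0 h replicate 2 (edgeR adjusted p = 0.0030). At 24 h, spheroids stood above 2D by 1.34 ± 0.17 on the log2 scale, or 2.53-fold (edgeR adjusted p = 7.8e-06). At 0 h, spheroids stood below 2D by a log2 fold change of -0.54 ± 0.18 (edgeR adjusted p = 0.020). That call at 0 h rested on single libraries: it ended without 2D 0 h replicate 2 (-0.27, edgeR adjusted p = 0.16) and without 3D 0 h replicate 2 (-0.43, edgeR adjusted p = 0.11). In TPM the libraries of those groups overlapped, and limma on the log2(TPM + 1) values gave -0.33 (limma adjusted p = 0.21).

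Id3 and Id1, both inhibitors of helix-loop-helix factors, had nearly the same profile. Id3 was the most abundant member, with 1035, 1121 and 1083 TPM in spheroids at 24 h and 273, 272 and 257 TPM in spheroids at 0 h. In 2D it had 795, 724 and 757 TPM at 24 h and 1096, 1076 and 999 TPM at 0 h. Spheroids at 0 h were lowest, 2D at 24 h lay in between, and spheroids at 24 h overlapped with 2D at 0 h.

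Id1 had 237, 259.8 and 254 TPM in spheroids at 24 h and 79.7, 74.9 and 71.2 TPM in spheroids at 0 h. In 2D it had 162, 150.1 and 157 TPM at 24 h and 298, 281 and 247 TPM at 0 h. The order of the groups was that of Id3, with the same overlap in TPM between spheroids at 24 h and 2D at 0 h. In CPM those groups did not overlap for Id1. It had 92.5, 123 and 112 CPM in spheroids at 24 h and 166, 153 and 125 CPM in 2D at 0 h. At 0 h, Id3 was 4.39-fold lower in spheroids than in 2D (log2 fold change -2.13 ± 0.12, edgeR adjusted p = 3.3e-10) and Id1 was 4.05-fold lower (log2 fold change -2.02 ± 0.14, edgeR adjusted p = 5.9e-09).

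At 24 h both stood on the other side, with Id1 1.53-fold higher in spheroids (log2 fold change 0.61 ± 0.14, edgeR adjusted p = 0.0017) and Id3 1.37-fold higher (log2 fold change 0.45 ± 0.11, edgeR adjusted p = 0.0039). The libraries of spheroids and 2D cells did not overlap at either time for these genes. Over 24 h the cultures moved in opposite directions. In spheroids Id3 rose 3.70-fold (log2 fold change 1.89 ± 0.12, edgeR adjusted p = 1.2e-09) and Id1 rose 2.99-fold (log2 fold change 1.58 ± 0.14, edgeR adjusted p = 1.0e-07). In 2D Id1 fell by 1.05 ± 0.14 on the log2 scale (edgeR adjusted p = 3.2e-05) and Id3 fell by 0.70 ± 0.11 (edgeR adjusted p = 0.00024).

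Id2, the third ID gene, had smaller fitted log2 fold changes than Id1 and Id3 in each of the comparisons of groups. It had 98.2, 105 and 101 TPM in spheroids at 24 h and 55.0, 52.3 and 57.2 TPM in spheroids at 0 h. In 2D it had 93.5, 91.7 and 85.6 TPM at 24 h and 96.1, 112 and 87.7 TPM at 0 h. The spheroid libraries at 0 h lay below all others, and the 2D groups overlapped.

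Id2 was 2.03-fold lower in spheroids than in 2D at 0 h (log2 fold change -1.02 ± 0.13, edgeR adjusted p = 8.4e-06). It rose 1.70-fold over 24 h in spheroids (log2 fold change 0.77 ± 0.13, edgeR adjusted p = 0.00016). At 24 h the cultures were not told apart, with a log2 fold change of 0.10 and a 95% interval from -0.18 to 0.38 (edgeR adjusted p = 0.58). In 2D, Id2 fell by 0.36 ± 0.13 over 24 h (edgeR adjusted p = 0.044), and 15 of 22 alternative settings did not call this decrease, with limma on the log2(TPM + 1) values giving -0.12 (limma adjusted p = 0.40). The calls at 0 h and in spheroids over time held in all 22 settings.

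Smad6, the inhibitory Smad, differed from the ID genes in that spheroids stayed below 2D at both times. It had 65.9, 50.1 and 57.5 TPM in spheroids at 24 h and 37.8, 44.5 and 36.0 TPM in spheroids at 0 h. In 2D it had 81.4, 105 and 98.8 TPM at 24 h and 82.5, 66.9 and 84.8 TPM at 0 h. Every spheroid library of a time lay below every 2D library of that time.

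Smad6 was 2.18-fold lower in spheroids at 0 h (log2 fold change -1.13 ± 0.12, edgeR adjusted p = 9.7e-07) and 1.66-fold lower at 24 h (log2 fold change -0.73 ± 0.12, edgeR adjusted p = 9.3e-05). Within spheroids it rose by 0.46 ± 0.12 on the log2 scale over 24 h (edgeR adjusted p = 0.0049). In 2D the log2 fold change over 24 h was 0.06, with a 95% interval from -0.19 to 0.31 (edgeR adjusted p = 0.73).

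**Figure D2:**
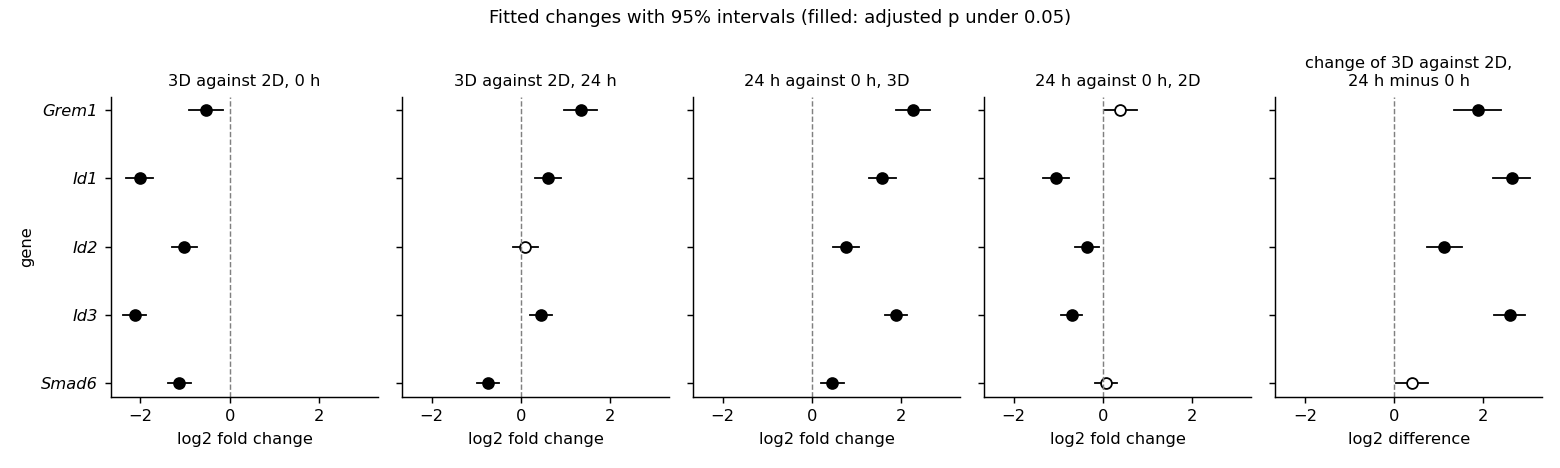
Log2 fold changes of the 5 tested genes (horizontal axes) with 95% intervals as lines, for the 4 comparisons of groups and for the change of the 3D against 2D difference (24 h minus 0 h). Filled points passed the test, and all 5 points lie left of 0 for 3D against 2D at 0 h and right of 0 for 24 h against 0 h in 3D.

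The promoter windows of the 4 genes with a window that rose in spheroids over 24 h are shown here for the letters that BMP-activated Smads are known to bind. The motifs were GGCGCC, the GC-rich element of SMAD1 and SMAD5, which reads the same on both strands, and CAGAC, the box bound by SMAD4, searched as CAGAC and as GTCTG on the other strand. Of the 7 genes, 5 had a window in the RefSeq table (build GRCm38.p6), from 250 bases before to 50 after the gene's start, and Bmp2 and Id1 had none. Capitals mark the motif matches, and each window is written 5′ to 3′ on the gene's strand. Id3 lies at chr4:136143572-136143871 on the plus strand, Id2 at chr12:25096043-25096342 on the minus strand, Grem1 at chr2:113758599-113758898 on the minus strand and Smad6 at chr9:64022010-64022309 on the minus strand.
Id3: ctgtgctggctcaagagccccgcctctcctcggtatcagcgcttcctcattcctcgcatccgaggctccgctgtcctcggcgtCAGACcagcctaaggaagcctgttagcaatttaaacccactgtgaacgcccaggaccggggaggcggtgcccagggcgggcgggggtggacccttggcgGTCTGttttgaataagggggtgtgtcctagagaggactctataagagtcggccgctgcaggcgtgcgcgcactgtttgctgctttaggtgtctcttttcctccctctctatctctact
Id2: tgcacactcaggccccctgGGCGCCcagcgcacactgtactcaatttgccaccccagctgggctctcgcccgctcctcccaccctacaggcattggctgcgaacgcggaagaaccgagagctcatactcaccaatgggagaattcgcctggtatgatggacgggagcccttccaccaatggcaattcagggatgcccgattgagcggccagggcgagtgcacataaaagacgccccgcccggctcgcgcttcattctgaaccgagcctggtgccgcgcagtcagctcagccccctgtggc
Grem1: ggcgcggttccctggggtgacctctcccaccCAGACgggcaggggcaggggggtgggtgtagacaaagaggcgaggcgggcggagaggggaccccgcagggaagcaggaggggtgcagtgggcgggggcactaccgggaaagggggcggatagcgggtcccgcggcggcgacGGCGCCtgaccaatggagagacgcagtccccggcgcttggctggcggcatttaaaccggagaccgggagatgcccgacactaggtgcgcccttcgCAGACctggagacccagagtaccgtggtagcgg
Smad6: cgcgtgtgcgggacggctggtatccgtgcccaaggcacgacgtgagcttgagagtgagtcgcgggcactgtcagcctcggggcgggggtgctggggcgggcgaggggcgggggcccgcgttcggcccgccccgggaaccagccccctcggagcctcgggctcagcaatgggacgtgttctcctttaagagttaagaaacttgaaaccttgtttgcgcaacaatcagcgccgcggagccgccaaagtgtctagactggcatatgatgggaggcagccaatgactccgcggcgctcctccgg
The Id3 window held CAGAC or GTCTG at 2 positions, which begin 167 and 68 bases before the start, and no GGCGCC. The Id2 window held GGCGCC at 1 position, 231 bases before the start, and no CAGAC. The Grem1 window held both, with GGCGCC 78 bases before the start and CAGAC at 219 bases before it and at base 18 after it. The windows of Smad6 and Bmp4 held neither motif. Of all 32851 windows in the table, 11.9% held GGCGCC, 49.6% held CAGAC or GTCTG and 5.24% held both. A match describes the letters only.

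For 3D against 2D at 0 h, 5 of the 5 tested genes were lower in spheroids and 0 were higher, where 22.7% of all 14338 genes tested were lower and 23.1% higher (edgeR, adjusted p under 0.05). The median log2 fold change of the 5 genes was -1.13, beside 0.02 for all genes. Id3 and Id1 were the most shifted, and 2.01% and 2.20% of all genes tested had a lower log2 fold change than they did. Grem1 was the least shifted, with 21.6% of genes below it. The libraries of spheroids and 2D cells did not overlap in CPM for any of the 5 genes, as was the case for 54.4% of all genes.

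For 3D against 2D at 24 h, 3 of the 5 genes (Grem1, Id1 and Id3) were higher in spheroids, where 19.6% of all genes were higher. Smad6 alone of the 5 was lower, where 22.8% of all genes were lower, and Id2 was not called. The libraries of spheroids and 2D cells did not overlap in CPM for 4 of the 5 genes and for 52.9% of all genes. The median log2 fold change of the 5 genes was 0.45, beside 0.00 for all genes. Grem1 exceeded 94.0% of all genes, Id1 81.8% and Id3 75.9%, while Id2 exceeded 56.3%. Id1, Id3 and Grem1 were lower in spheroids at 0 h and higher at 24 h, a turn seen in 12.2% of the 3255 genes that were lower at 0 h. For Grem1 the lower level at 0 h was not called under 7 of 22 alternative settings (adjusted p up to 0.34), so under those settings the turn holds for Id1 and Id3 only. Those comparisons share no libraries.

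Over 24 h in spheroids, 5 of the 5 genes rose and 0 fell, where 23.8% of all genes rose and 24.7% fell. The libraries of the times did not overlap in CPM for any of the 5 genes, nor for 60.3% of all genes. The median log2 fold change of the 5 genes was 1.58, beside 0.00 for all genes. Grem1 exceeded 98.4% of all genes, Id3 97.4% and Id1 95.9%, while Smad6 exceeded 73.1%. This comparison shares its 0 h libraries with that of spheroids and 2D cells at 0 h, so the low values of spheroids at 0 h enter both.

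Over 24 h in 2D, 3 of the 5 genes (Id1, Id2 and Id3) fell, where 17.0% of all genes fell, and 0 rose, where 17.4% of all genes rose (edgeR). For Grem1 the edgeR p was 0.039 unadjusted and 0.093 adjusted. Limma on the log2(TPM + 1) values called it higher (limma adjusted p = 0.037), where 2746 of 14469 genes were called higher. Limma on those values with no filter did not call Grem1 (limma adjusted p = 0.083), and DESeq2 called 0 of the 5 genes higher. The libraries of the times did not overlap in CPM for 2 of the 5 genes (Id1 and Id3) and for 43.1% of all genes. The median log2 fold change of the 5 genes was -0.36, beside 0.02 for all genes. Id1 was the most shifted, with 4.55% of all genes below it. Grem1 and Smad6 were not called in the main edgeR fit.

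**Figure D3:**
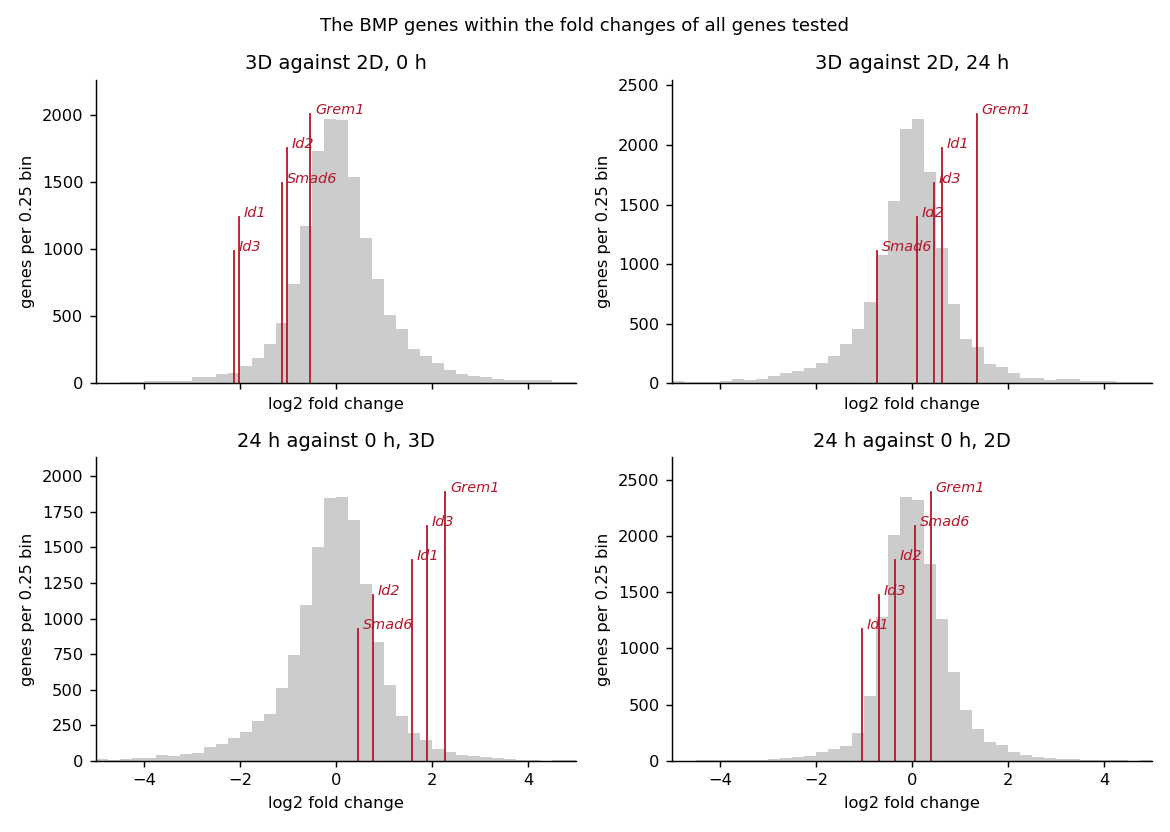
Histograms of the log2 fold changes of all 14338 genes tested (grey, genes per bin of 0.25, horizontal axis drawn from -5 to 5), with red lines at the values of the 5 BMP genes, whose heights carry no meaning. Id1 and Id3 lie in the left tail for 3D against 2D at 0 h, and Grem1, Id3 and Id1 lie in the right tail for 24 h against 0 h in 3D.

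Whether the signed log2 fold change of spheroids against 2D cells changed between the times was tested directly. It was more positive at 24 h than at 0 h for 4 of the 5 genes, where 18.7% of all genes were called in that direction, and more negative for 0, where 20.5% were. A more positive value is not a wider difference: the fitted value was nearer to 0 at 24 h for Id1 (0.61 at 24 h and -2.02 at 0 h), Id3 (0.45 and -2.13) and Id2 (0.10 and -1.02). The change was 2.63 ± 0.20 for Id1 (edgeR adjusted p = 2.0e-08), 2.59 ± 0.16 for Id3 (edgeR adjusted p = 2.6e-09), 1.88 ± 0.25 for Grem1 (edgeR adjusted p = 1.4e-05) and 1.12 ± 0.19 for Id2 (edgeR adjusted p = 0.00013). Smad6 had 0.40 ± 0.17, with a 95% interval from 0.04 to 0.75 (edgeR adjusted p = 0.073). The Smad6 value was called without 2D 0 h replicate 2 (0.49, edgeR adjusted p = 0.022), without 3D 0 h replicate 2 (0.52, edgeR adjusted p = 0.028) and with library totals (0.42, edgeR adjusted p = 0.048).

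The order of the genes by level was not the same in every group. Id3 was highest and Id1 next in all 12 libraries, and in group means Id3 ranked 114th of 14338 genes by TPM in spheroids at 24 h and 119th in 2D at 0 h, but 696th in spheroids at 0 h. In spheroids at 24 h, Grem1 (59.3 ± 11.7 TPM, SD, n = 3) and Smad6 (57.8 ± 7.88 TPM) did not differ beyond their spread. In spheroids at 0 h, Grem1 (11.6 ± 1.37 TPM) stood below Smad6 (39.4 ± 4.50 TPM) without overlap. In 2D at 24 h, Smad6 (95 ± 12.1 TPM) and Id2 (90.3 ± 4.11 TPM) overlapped, and in 2D at 0 h Id2 (98.5 ± 12.2 TPM) lay above Smad6 (78.1 ± 9.71 TPM).

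Likeness of pattern was measured as the root mean square difference between the log2 CPM of 2 genes over the 12 libraries, each gene centred on its own mean. Of 9161 other genes with at least 10 CPM on average, Id3 was the closest to Id1 and Id1 the closest to Id3, at 0.18 on the log2 scale, where the median gene lay at 0.83 from Id1 and 0.89 from Id3. The next closest gene, the same one for both and no member of the set, lay at 0.19 from Id1 and 0.18 from Id3, so the likeness of Id1 and Id3 to each other was matched by another gene. Id2 was the 135th closest gene to Id1 (0.41) and the 198th closest to Id3 (0.46). Seen from Id2, Id1 was only the 2478th closest gene and Id3 the 3591st. The measure depends on how much a gene varies, and Id2 varied by only 0.39 around its own mean. Smad6 was nearer to Id2 (0.37) than to Id1 (0.61) or Id3 (0.60), but Id2 was only the 940th closest gene to Smad6. Grem1 was far from every other member, and its nearest, Id2, lay at 0.77 and was the 2014th closest gene. The 12 libraries fall into 4 groups, so these values mostly compare group means.

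**Figure D4:**
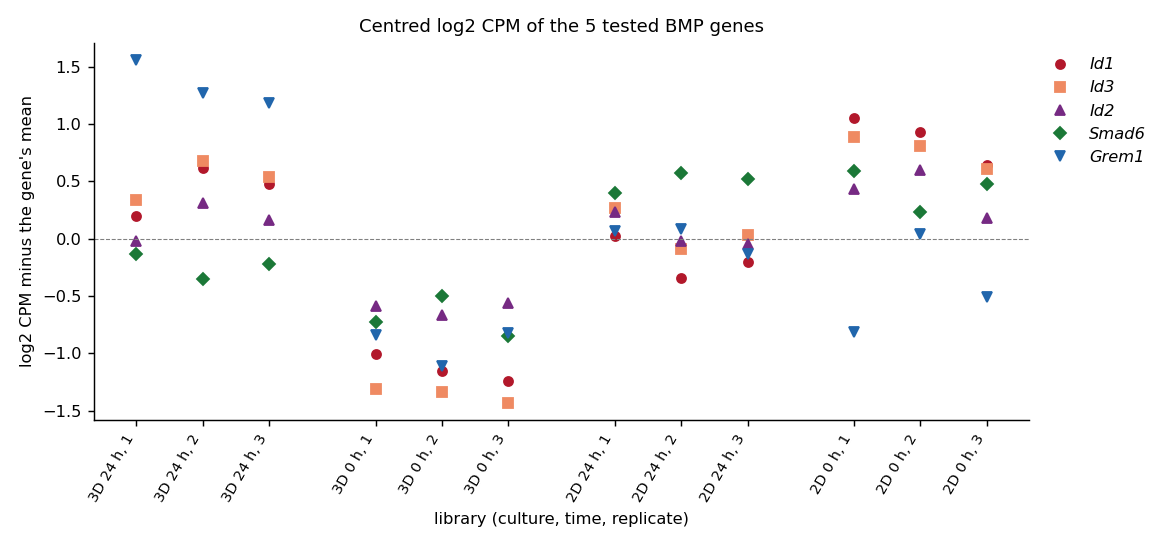
Log2 CPM of the 5 tested genes minus each gene's own mean (vertical axis) in the 12 libraries (horizontal axis, by culture, time and replicate). Id1 and Id3 lie close to each other (root mean square difference 0.18), and Grem1 is the gene that stands high in spheroids at 24 h and not in 2D at 0 h.

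Ratios taken within a library do not depend on how libraries are scaled, and are given as a description. Grem1 amounted to 23.9% ± 5.92 of Id1 in TPM in spheroids at 24 h and 15.4% ± 2.18 in spheroids at 0 h, and to 14.9% ± 1.92 in 2D cells at 24 h and 5.59% ± 1.82 in 2D cells at 0 h (SD, n = 3). The antagonist was thus lowest relative to Id1 in 2D at 0 h, where no library passed 7.21%, and highest in spheroids at 24 h, where none was under 20.5%. Smad6 amounted to 23.2% ± 4.27 of Id1 in spheroids at 24 h and 52.5% ± 6.23 in spheroids at 0 h, and to 61.1% ± 9.99 in 2D cells at 24 h and 28.6% ± 5.35 in 2D cells at 0 h. Spheroids at 24 h and 2D cells at 0 h, the groups with the most Id1 RNA, had the least Smad6 RNA relative to it. Id1 is the divisor of the Grem1 and Smad6 ratios, so a high Id1 level lowers either ratio by itself. The mean Grem1 level was 15.2 TPM in 2D at 0 h and 11.6 TPM in spheroids at 0 h. Id1 had its highest mean, 275 TPM, in 2D at 0 h.

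The summed TPM of Id1, Id2 and Id3 was 1431 ± 57.6 in spheroids at 24 h and 397 ± 11.4 in spheroids at 0 h, and 1005 ± 42.9 in 2D cells at 24 h and 1431 ± 85.3 in 2D cells at 0 h (SD, n = 3). Id3 made up 75.4% ± 0.125 of this sum in spheroids at 24 h and 67.3% ± 0.748 in spheroids at 0 h, and 75.5% ± 0.430 in 2D cells at 24 h and 73.9% ± 0.884 in 2D cells at 0 h. Id2 took 7.09% ± 0.0669 of it in spheroids at 24 h and 13.8% ± 0.906 in spheroids at 0 h, and 8.99% ± 0.466 in 2D cells at 24 h and 6.87% ± 0.632 in 2D cells at 0 h. Spheroids at 0 h thus had the lowest ID sum and the largest Id2 share of it, with no overlap with any other group. The equal sums of spheroids at 24 h and 2D cells at 0 h hold for TPM. In mean CPM, spheroids at 24 h were below 2D cells at 0 h for Id3 (686 and 813), Id1 (109 and 148) and Id2 (63.2 and 75.4). That difference was not tested.

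**Figure D5:**
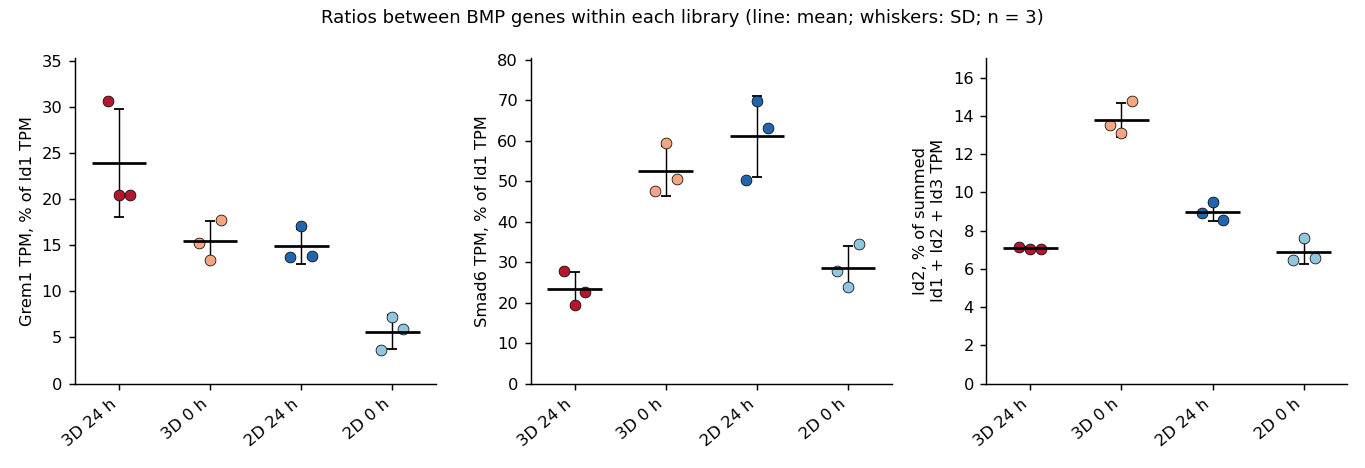
Grem1 and Smad6 as a percent of Id1 and Id2 as a percent of the summed ID genes, all from TPM (vertical axes, from 0), in each library by group (horizontal axes), with mean and SD (n = 3). Grem1 relative to Id1 is lowest in 2D at 0 h (3.62% to 7.21%), and the Id2 share is highest in spheroids at 0 h (13.1% to 14.8%).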

How the data were processed

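RNA of 12 libraries was measured by sequencing; per the labels' protocols, a low-input SMART-seq v4 kit was followed by a stranded TruSeq mRNA kit. The authors deposited expected counts per gene and, in a second table, log2(TPM + 1) values. Per the submitters' processing notes, FastQC 0.11.9, STAR, RSEM and build GRCm39 were used; further versions, annotation and settings were not stated there. Column names give day 0 and day 1, read as 0 h and 24 h.

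Expected counts were rounded. The analysis used edgeR 4.0.16 in R 4.3.3, with its expression filter (minimum count 10), TMM scaling (factors 0.917 to 1.076) and a quasi-likelihood fit with 1 term per group over all 12 libraries (8 residual degrees of freedom). The SE is the log2 fold change over the square root of its F. Alternatives used DESeq2 1.42.0 and limma 3.58.1. The steps were tested on simulated counts. No replicate pair agreed within sampling noise (chi-square per degree of freedom at least 4.51).

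All 7 members are named by rule. They, the motifs and the tests were chosen with earlier results of these data known. A list of further BMP pathway genes, cell type markers and a comparison of protein sequences were planned but not analysed here, since none of the 56748 IDs matched the supplied gene table and no protein table was used. Promoter sequences are RefSeq's, matched by symbol.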

Additional observations from a re-analysis of the deposited data

Results flagged for a closer look

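The 3D against 2D difference became more positive between 0 h and 24 h for 4 of the 5 tested genes, by an edgeR test of that change. Of all genes tested, 18.7% were called in that direction and 20.5% in the other. In size, the fitted difference was smaller at 24 h than at 0 h for Id1, Id3 and Id2, and larger for Grem1. On the log2 scale the change was 2.63 for Id1 (edgeR adjusted p = 2.0e-08), 2.59 for Id3 (edgeR adjusted p = 2.6e-09), 1.88 for Grem1 (edgeR adjusted p = 1.4e-05) and 1.12 for Id2 (edgeR adjusted p = 0.00013). Each kept its direction and its call in all 21 alternative settings, with values from 2.53 to 2.78 for Id1, 2.49 to 2.72 for Id3, 1.61 to 2.09 for Grem1 and 0.99 to 1.24 for Id2.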

How the results depend on the processing

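Of 25 results for single genes, 20 kept direction and call under every alternative run (up to 22 a comparison), and 515 of 545 alternative values did. The exceptions were Grem1 at 0 h and in 2D over time, Id2 and Smad6 in 2D over time, and the change of the Smad6 difference. Grem1 rose in 2D over 24 h, which made 1 gene higher in place of 0, with no expression filter (edgeR adjusted p = 0.028), with limma on log2(TPM + 1) or log2(TPM + 0.1) (limma adjusted p = 0.037 each) and without 2D 0 h replicate 2 (0.0030); its adjusted p ran from 0.0030 to 0.37. Leaving out 1 library gave 0 to 1 genes higher in that comparison. The Smad6 log2 change in 2D over time turned to -0.04 without 2D 0 h replicate 2. Grem1 at 0 h was not called under 7 of 22 settings (adjusted p 0.0024 to 0.34), among them upper-quartile scaling (0.065) and library totals (0.063). The decrease of Id2 in 2D had adjusted p from 0.021 to 0.45. The cause of these changes was not tested. Same-numbered libraries did not deviate together over all genes (correlations -0.23 to 0.05). These correlations had no differently numbered pairs beside them. The labels do not say what the number stands for, and a shared source of part of the genes' spread was not tested. With the number as a replicate block, 5 genes were lower in spheroids at 0 h, as without it. The Id2 decrease in 2D was then not called (edgeR adjusted p = 0.069). Over all genes, 3104 were higher and 3023 lower at 0 h with the block, against 3309 and 3255 without it. Scaling moved the median log2 fold change of all genes to 0.14 at 0 h (upper quartile) and to 0.12 at 0 h and at 24 h (library totals). Counts of higher and lower genes were then 4025 and 2610 at 0 h (upper quartile) and 3648 and 2708 at 24 h, against 2815 and 3276 (library totals). With limma on log2(TPM + 1), which also changes the test, the measure and the filter, the median in 2D over time was 0.17 and the split 2746 and 1213, against 2489 and 2441. Bmp2 was tested in some settings: in spheroids against 2D at 24 h its adjusted p was 0.0084 (edgeR with no filter) and 0.027 (DESeq2). DESeq2 was not without a filter. It gave an adjusted p for 16850 genes in that comparison and none for Bmp4, where edgeR with no filter gave one for 25732 genes. Adjusted p from edgeR with no filter are not on the scale of the main fit. For Id3 at 0 h the edgeR adjusted p was 5e-70 with no filter, against 3.3e-10. For Id2 in 2D over time it was larger with no filter (edgeR adjusted p = 0.062, against 0.044). The same limit holds for the Grem1 call with no filter. Depth limits Bmp2 and Bmp4, whose fitted values depend on the prior count.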
